A study of Mus musculus with 9 samples.

Results

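The TAM receptors are a family of 3 receptor tyrosine kinases, TYRO3, AXL and MERTK, and their ligands are GAS6 and protein S. The 5 genes that encode them, Tyro3, Axl, Mertk, Gas6 and Pros1, were taken by symbol from a table of 54752 mouse genes, and each matched 1 Ensembl identifier. Both ligands carry a Gla domain, which after vitamin K-dependent carboxylation binds phosphatidylserine on the surface of dying cells and membranes, while the other end of the ligand binds the receptor. GAS6 binds all the TAM receptors, whereas protein S acts through TYRO3 and MERTK. In macrophages and dendritic cells the receptors drive the uptake of dying cells and restrain cytokine signalling, and in melanoma high AXL marks a dedifferentiated state with low MITF.

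B16F10, the line studied, is a melanoma line of mouse origin, kept here in DMEM and 10% FBS. A guide RNA named for GFP (GFPsg, genotype WT) gave the control, and guides Tada2bsg1 (guide 1) and Tada2bsg2 (guide 2) gave the genotype Tada2b knockout. TADA2B is an adaptor of the acetyltransferase module of the SAGA coactivator, which acetylates histone H3. Each group held 3 libraries, and the sources used here do not say whether these were separate cultures, clones or pools, so that p-values measure only the spread between these libraries, which may be technical.

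Library totals ranged from 70.6 to 76.9 in units of 1000000 counts. Tada2b mRNA was not lower in the libraries labelled knockout, with a log2 change of 0.30 for guide 1 (edgeR adjusted p = 2.13e-04) and 0.02 for guide 2 (0.806), and lower with guide 2 than with guide 1 (-0.28, 0.00671). Counts over a whole gene do not show an edited site, so they do not check the label. All 7 melanoma lineage markers (Pmel, Tyr, Tyrp1, Dct, Mlana, Mitf and Sox10) were read in every library, at a summed level of 20322 to 21118 CPM in GFPsg, 4973 to 5210 with guide 1 and 7032 to 7274 with guide 2 (CPM, counts per 1000000 counts of a TMM-scaled library). Of 14 macrophage and leukocyte markers, Ptprc, Itgam, Tyrobp and Ncr1 were at 0 in all 9 libraries and Adgre1 had at most 1 read, and the summed level was 3.65 to 4.09, 7.03 to 7.41 and 6.19 to 6.48 CPM in the same order of groups. Of 11 fibroblast and endothelial markers, Dcn and Cdh5 had at most 1 read in any library, and the summed level was 7.60 to 9.78, 16 to 17.2 and 15.7 to 17.7 CPM. Of the 4 macrophage and leukocyte markers that were tested, Cd68 (log2 change 1.09), Lyz2 (1.08) and Cx3cr1 (2.52, from 0.0432 CPM) rose and Fcer1g (-1.19) fell. Of the 4 fibroblast and endothelial markers tested, Pdgfrb (1.45) and Des (1.33) rose, Vwf (-2.11) fell and Pdgfra (-0.04, edgeR adjusted p = 0.869) was not called. With no filter on low counts 2 markers of each of these lists fell, and Cx3cr1, Fcer1g and Vwf were named after their values were seen. The part of these other cell types' genes in the results below was not tested, and in bulk RNA fewer cells of a type and less RNA per cell cannot be told apart.

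The reference promoters of the TAM genes that passed the test below are shown because Axl and Tyro3 moved in opposite directions. RefSeq (GRCm38.p6) gave 1 window for each of the 5 genes, from 250 bases before to 50 after the start site. The Axl window is chr7:25788684-25788983 on the minus strand, that of Tyro3 is chr2:119799264-119799563 on the plus strand and that of Pros1 is chr16:62854057-62854356 on the plus strand. The Tyro3 window lies inside the gene span given below, downstream of its start at 119797733. Its letters are thus those of a RefSeq start site within that span. Capitals mark GGAATG, the core that TEAD factors bind, GGGCGG, the GC box of SP1, and TTCNNNGAA, the gamma-activated site motif, each searched on both strands, and matches may overlap.
Axl: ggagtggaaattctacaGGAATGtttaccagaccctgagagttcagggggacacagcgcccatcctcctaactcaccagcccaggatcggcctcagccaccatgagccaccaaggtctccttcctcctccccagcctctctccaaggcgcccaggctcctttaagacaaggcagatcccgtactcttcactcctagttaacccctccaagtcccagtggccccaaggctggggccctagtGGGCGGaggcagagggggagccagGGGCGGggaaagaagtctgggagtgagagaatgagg
Tyro3: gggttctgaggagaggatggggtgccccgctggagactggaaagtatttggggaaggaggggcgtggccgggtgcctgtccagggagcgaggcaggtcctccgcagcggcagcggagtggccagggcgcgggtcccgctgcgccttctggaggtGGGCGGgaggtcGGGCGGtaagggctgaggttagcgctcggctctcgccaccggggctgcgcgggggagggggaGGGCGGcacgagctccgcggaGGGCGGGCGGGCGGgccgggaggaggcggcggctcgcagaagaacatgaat
Pros1: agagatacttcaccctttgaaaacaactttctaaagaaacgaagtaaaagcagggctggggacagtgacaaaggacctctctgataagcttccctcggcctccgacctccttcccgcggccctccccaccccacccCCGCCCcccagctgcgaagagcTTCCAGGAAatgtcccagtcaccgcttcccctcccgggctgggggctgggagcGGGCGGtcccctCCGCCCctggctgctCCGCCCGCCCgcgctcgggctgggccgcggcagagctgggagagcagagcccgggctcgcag

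Among the 5 windows only that of Axl held GGAATG, at -233 from the start site, a motif found in 14.7% of 32851 mouse promoter windows of the same length. GGGCGG was found in every window, with 2 matches for Axl, 6 for Tyro3, 4 for Mertk, 4 for Gas6 and 5 for Pros1, against 35.7% of all windows with at least 1. That share is not matched for G and C content. The content was 60.3% for Axl, 73.3% for Tyro3, 66% for Mertk, 58.3% for Gas6 and 66.7% for Pros1, all above the median of 52.7% over all windows. TTCNNNGAA occurred only for Pros1 (8.30% of all windows). The AP-1 motif TGANTCA (7.81%), the MITF E-boxes CATGTG (14.2%) and CACGTG (7.15%) and the core of the interferon-stimulated response element (3.44%) had no match in the 5 windows. The Axl window had the lowest observed to expected ratio of CpG dinucleotides of the 5, at 0.22. The others were at 0.498 for Mertk, 0.645 for Pros1, 0.705 for Gas6 and 0.879 for Tyro3, with a median of 0.384 over all windows. A ratio below that of Axl was found in 31.7% of all windows, and below that of Tyro3 in 85.7%. These are letters of the reference, and the reads do not show the promoter state of these cells.

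Of the 5 genes, 4 passed the filter on low counts and Gas6 did not. In the libraries labelled knockout, set as 1 group against GFPsg, Axl and Pros1 rose, Tyro3 fell and Mertk was not called. Axl changed by far more than the others, 9.65-fold, while Tyro3 fell to 0.781 of its control level and Pros1 rose 1.13-fold. The 3 calls are to be read against edgeR calls for 51.0% of all 17931 genes tested, 24.7% higher and 26.3% lower, so that a small called change was common in these libraries. The median log2 change was 0.19 over the 4 genes and -0.02 over all genes tested. With scaling by library size alone 63.3% of all called genes were higher, in place of 48.4%, and the directions of the 4 genes were unchanged.

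**Figure D1:**
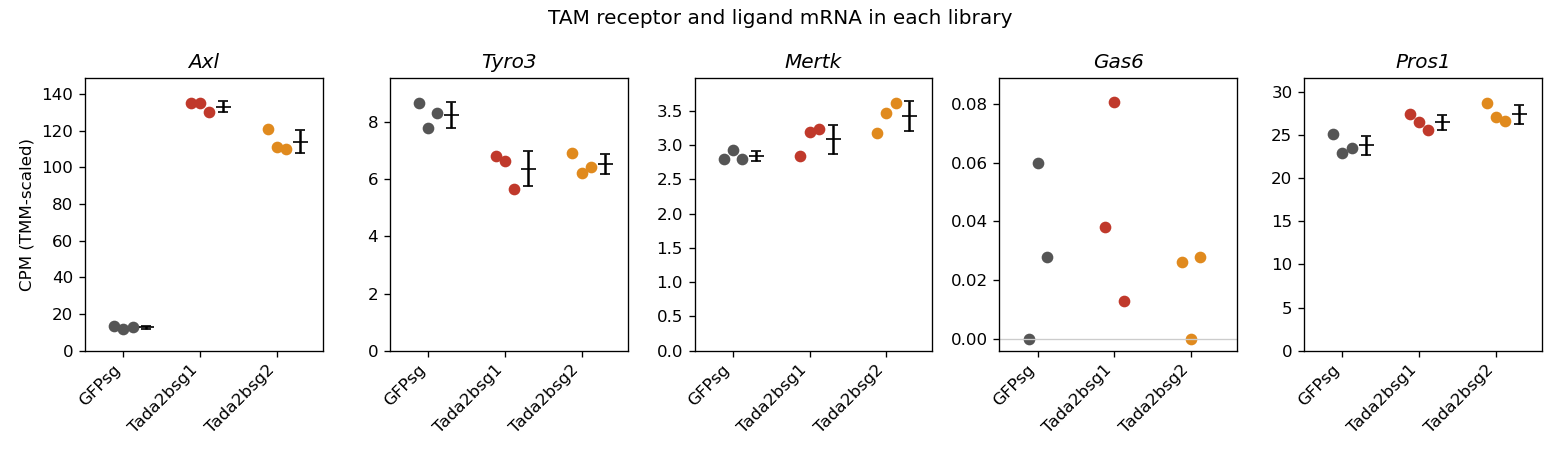
CPM of each TAM gene in each of the 9 libraries (points, 3 per group; linear axes that differ between panels), with the mean and SD beside each group except for Gas6. Axl lies at 11.6 to 13.5 CPM in GFPsg and at 110 to 135 CPM in the libraries labelled knockout, and Gas6 stays at or below 0.0806 CPM.

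Axl encodes the receptor that has the highest affinity for GAS6 (ENSMUSG00000002602, mm10 chromosome 7, 25757273 to 25788705, minus strand). The level in GFPsg was 13.5 CPM (998 reads), 11.6 CPM (776 reads) and 13.1 CPM (938 reads) by library. Guide 1 gave 135 (10648 reads), 135 (10011 reads) and 130 CPM (10105 reads), and guide 2 gave 121 (9213 reads), 111 (8616 reads) and 110 CPM (7866 reads). The 3 groups did not overlap, and the lowest library labelled knockout lay far above the highest control. The log2 change was 3.27 ± 0.05 (SE; edgeR adjusted p = 1.80e-17), which placed Axl 236th among the 4426 genes called higher when ranked by size. With guide 1 the log2 change was 3.38 ± 0.06 (edgeR adjusted p = 3.00e-17) and with guide 2 it was 3.16 ± 0.06 (adjusted p = 1.58e-16).

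Axl was the TAM gene that differed between the guides. It was lower with guide 2 than with guide 1 by a log2 difference of -0.22 ± 0.05 (95% interval -0.33 to -0.12; edgeR adjusted p = 0.0163), where 3.68% of all genes tested were called (2.66% higher and 1.02% lower) and 23.3% had groups that did not overlap. The call ended without guide 1 replicate 1 (adjusted p = 0.0689), guide 1 replicate 2 (0.0903) or guide 2 replicate 2 (0.0942), with log2 differences of -0.20 to -0.21 in these fits, and the adjusted p ran from 2.30e-04 to 0.0942 over 16 alternatives. The 7 melanoma lineage markers differed between the guides the other way, all higher with guide 2 by a median log2 difference of 0.50. They fell less with guide 2 (median log2 change -1.65) than with guide 1 (-2.08), so a smaller change with guide 2 was not particular to Axl. On principal component 1 of the 9 libraries (68.1%), guide 2 lay at 26.3 to 28.2, guide 1 at 39.7 to 40.1 and GFPsg at -67.3 to -66.6. Mitf, the lineage transcription factor, went from 783 ± 3.50 CPM in GFPsg to 245 ± 4.56 with guide 1 and 332 ± 3.45 with guide 2 (mean ± SD, n = 3, as for the other genes below).

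Tyro3 (ENSMUSG00000027298, chromosome 2, 119797733 to 119818104, plus strand) encodes the receptor best known from the nervous system, which binds protein S as well as GAS6. Its values were 8.66, 7.78 and 8.32 CPM in GFPsg (641, 519 and 595 reads), 6.82, 6.63 and 5.67 CPM with guide 1 and 6.91, 6.22 and 6.43 CPM with guide 2. Every library labelled knockout lay below every control, as was the case in either direction for 44.0% of all genes tested. The log2 change was -0.36 ± 0.07 (SE; edgeR adjusted p = 6.18e-04). It was -0.37 with guide 1 (95% interval -0.56 to -0.19; edgeR adjusted p = 0.00167) and -0.34 with guide 2 (-0.52 to -0.16; adjusted p = 0.00375). The guides overlapped, and their log2 difference of 0.03 had an interval of -0.15 to 0.22.

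Mertk (ENSMUSG00000014361, chromosome 2, 128698956 to 128802894, plus strand) encodes the receptor by which macrophages and retinal pigment epithelium take up dying cells and photoreceptor tips. It was the receptor with the fewest reads, at 2.80, 2.92 and 2.80 CPM in GFPsg (207, 195 and 200 reads), 2.84, 3.19 and 3.23 CPM with guide 1 (224 to 252 reads) and 3.18, 3.47 and 3.61 CPM with guide 2 (242 to 269 reads). The guide 2 libraries all lay above the controls, while guide 1 replicate 1 lay among them. The log2 change was 0.19 ± 0.09 (SE; edgeR adjusted p = 0.0961) for both guides together and 0.12 for guide 1 (95% interval -0.11 to 0.35; edgeR adjusted p = 0.393). For guide 2 it was 0.27, with an interval of 0.04 to 0.50 and an edgeR adjusted p of 0.0503, just outside the threshold. That last value fell inside the threshold in 8 of 16 alternatives, over which the adjusted p ran from 0.0106 to 0.133. With library size alone Mertk was called for both guides together as well (log2 change 0.28, edgeR adjusted p = 0.0175).

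Pros1 (ENSMUSG00000022912, chromosome 16, 62854307 to 62929346, plus strand) encodes protein S, a plasma anticoagulant that also activates TYRO3 and MERTK. It stood at 25.1, 22.9 and 23.5 CPM in GFPsg (1857, 1526 and 1681 reads). Guide 1 gave 27.4, 26.5 and 25.6 CPM, and guide 2 gave 28.7, 27.1 and 26.6 CPM. Every library labelled knockout lay above every control, although the gap between the highest control and the lowest library labelled knockout was small (25.1 against 25.6 CPM). The log2 change was 0.18 ± 0.05 (SE; edgeR adjusted p = 0.00370). With guide 2 it was 0.20 (95% interval 0.09 to 0.32; edgeR adjusted p = 0.00457). With guide 1 it was 0.15 (0.04 to 0.27; edgeR adjusted p = 0.0237), a call that ended when GFPsg replicate 2 (adjusted p = 0.0716), GFPsg replicate 3 (0.0530), guide 1 replicate 1 (0.0720) or guide 1 replicate 2 (0.0585) was left out, within 0.00376 to 0.0720 over 16 alternatives. The log2 difference between the guides was 0.05, with an interval of -0.06 to 0.16.

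Gas6 (ENSMUSG00000031451, chromosome 8, 13465374 to 13494490, minus strand) encodes the ligand shared by all the receptors, and it was hardly read in any library. The GFPsg libraries held 0, 4 and 2 reads, those with guide 1 held 3, 6 and 1, and those with guide 2 held 2, 0 and 2. These 20 reads compare with 17384 for Pros1 in the same libraries. The summed reads gave 0.0283 CPM in GFPsg (exact Poisson 95% interval 0.0104 to 0.0615), 0.0432 CPM with guide 1 (0.0207 to 0.0795) and 0.0178 CPM with guide 2 (0.00484 to 0.0455), intervals that overlap and cover counting error only. With 3 counts set as the limit for a count of 0, the limit was 0.0405 CPM in GFPsg replicate 1 and 0.0387 CPM in guide 2 replicate 2. A difference in Gas6 between the groups was not tested, because the gene did not pass the filter on low counts. The only gene that shares exon positions with Gas6 is Tmem255b on the opposite strand (34 bases, 1.33% of the Gas6 exons), and it had 0 reads in every library.

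**Figure D2:**
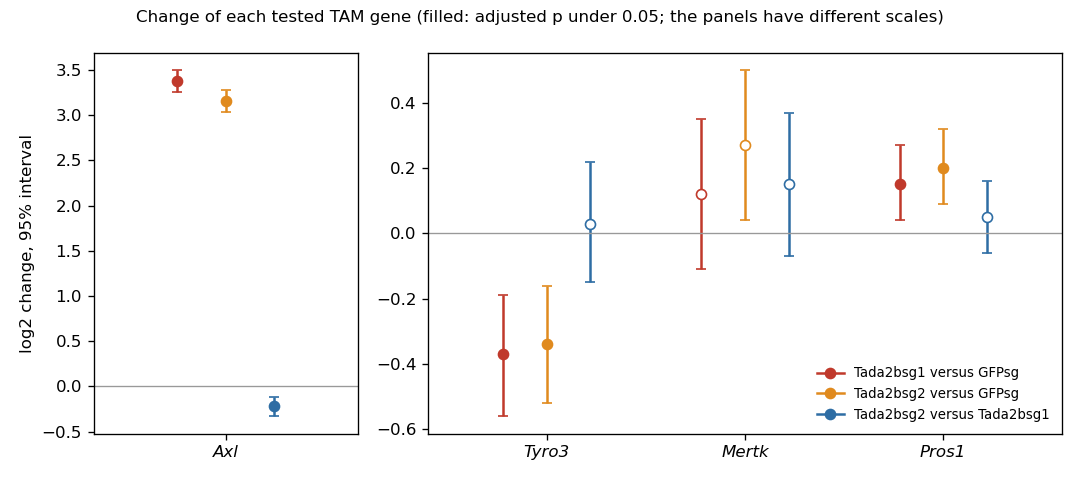
Log2 change of the 4 tested TAM genes for each guide against GFPsg and for guide 2 against guide 1, with 95% intervals derived from the edgeR F statistic (filled points, adjusted p under 0.05; the Axl panel has its own scale). Axl lies above 3 with both guides, Tyro3 lies below 0 with both, and Mertk has no filled point.

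With guide 1, 3 of the 4 tested genes were called, where edgeR called 48.4% of all genes (23.8% higher and 24.5% lower) and 55.9% had groups that did not overlap. With guide 2, 3 were called, where 45.1% of all genes were called (22.1% higher and 23.0% lower) and 51.0% did not overlap. Both comparisons share the GFPsg libraries, so the likeness of the changes with the guides is not independent support.

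Levels of different genes were compared per kilobase of merged exons. In GFPsg the order was Pros1 (5.83 ± 0.28 CPM per kb), Axl (2.53 ± 0.195), Tyro3 (1.33 ± 0.0716) and Mertk (0.655 ± 0.0168; mean ± SD, n = 3), with Gas6 last at 0.0115 CPM per kb. With guide 1 Axl came first (26.4 ± 0.58 CPM per kb), followed by Pros1 (6.49 ± 0.21), Tyro3 (1.03 ± 0.0995), Mertk (0.711 ± 0.05) and Gas6 (0.0172). With guide 2 the order was Axl (22.7 ± 1.24 CPM per kb), Pros1 (6.71 ± 0.27), Tyro3 (1.05 ± 0.0567), Mertk (0.789 ± 0.0506) and Gas6 (0.00709). No neighbours in these orders overlapped between libraries. The order was the same per kilobase of the longest coding transcript, an alternative chosen after seeing the data.

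Axl made up 56.0 ± 1.29% of the summed receptor level per kb in GFPsg, with Tyro3 at 29.5 ± 0.22% and Mertk at 14.5 ± 1.20%. With guide 1 Axl made up 93.8 ± 0.13%, Tyro3 3.65 ± 0.27% and Mertk 2.53 ± 0.22%, and with guide 2 the shares were 92.5 ± 0.39%, 4.29 ± 0.0917% and 3.23 ± 0.36% (mean ± SD, n = 3). The summed level of the 3 receptors went from 4.52 ± 0.25 to 28.2 ± 0.65 and 24.5 ± 1.24 CPM per kb, whereas that of the ligands went from 5.84 ± 0.27 to 6.50 ± 0.22 and 6.72 ± 0.27 CPM per kb. In the control the ligands were thus above the receptors in summed mRNA, and with each guide the receptors, mostly Axl, were above the ligands. Tyro3 and Mertk, which encode the receptors through which protein S acts, each stayed below Pros1 per kb in every group. Pros1 made up nearly all ligand mRNA in every library, and Gas6 at most 0.485%.

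**Figure D3:**
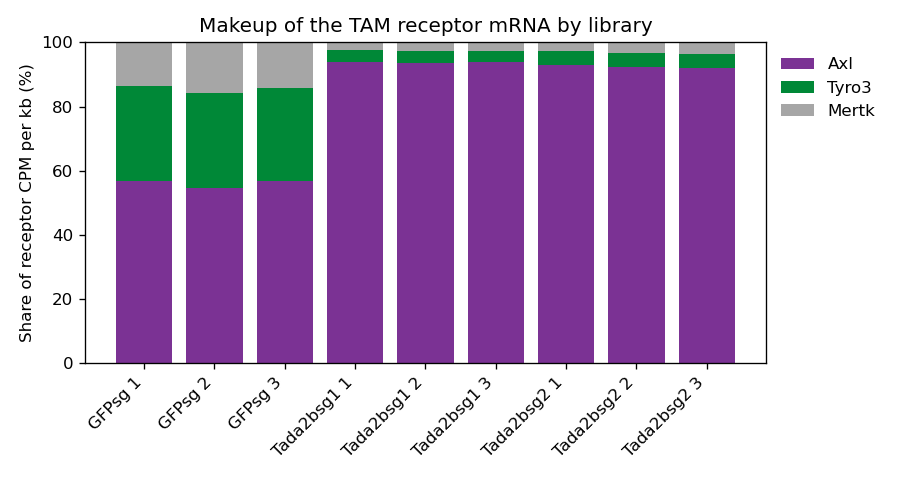
Share of each receptor in the summed CPM per kb of Axl, Tyro3 and Mertk, as 1 bar per library. Axl takes 54.5 to 56.7% in the GFPsg libraries and 92.1 to 93.9% in the libraries labelled knockout.

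The pathway around the receptors was described through 8 further lists. The count of each list is to be read against all genes tested, of which 24.7% were called higher and 26.3% lower, 51.0% in all, with a median log2 change of -0.02. No list was tested as a set. In the list of the vitamin K cycle and gamma-carboxylation all genes were tested, and 4 of 7 rose, 2 fell and Vkorc1 was not called (median log2 change 0.33). Those that rose include Calu (0.09, edgeR adjusted p = 0.0173), which does not encode an enzyme. Ggcx, the gamma-glutamyl carboxylase, went from 32.1 ± 1.43 CPM in GFPsg to 24.3 ± 0.84 with guide 1 and 25.6 ± 0.74 with guide 2, so that it fell by 0.36 on the log2 scale (edgeR adjusted p = 1.93e-06). Vkorc1, the vitamin K epoxide reductase, had a log2 change of 0.33 (edgeR adjusted p = 0.0822), which was 0.52 and called without GFPsg replicate 2 (0.0168), 0.40 and called without guide 2 replicate 1 (0.0286), and 0.42 and called with library size alone (0.0297). Its paralog Vkorc1l1, the other gene that fell (-0.08, adjusted p = 0.0412), stood at 58.3 ± 0.85 CPM in GFPsg. Vkorc1l1, Aifm2 and Calu were named after their values were seen. The count of genes of this list that fell was 1 in place of 2 in 12 of 15 alternatives, among them the fits without GFPsg replicate 2, GFPsg replicate 3 or any 1 library labelled knockout. Furin, which encodes a proprotein convertase, rose by 1.24 and Aifm2, which reduces vitamin K, by 0.47 on the log2 scale.

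Of 12 other genes for Gla proteins only 5 were tested, and 2 rose, 2 fell and 1 was not called (median -0.49). The clotting factor genes F7 and F9 were at 0 in all groups. Among the transmembrane Gla genes, Prrg1 fell by 0.99 (edgeR adjusted p = 6.32e-10) and Prrg4 rose by 1.43 (from 4.31 ± 0.59 to 11.6 ± 0.25 and 11.5 ± 0.90 CPM). The rise of Prrg2 was 0.21 (edgeR adjusted p = 0.0319) and ended without GFPsg replicate 2 (0.0854), GFPsg replicate 3 (0.0692) or guide 1 replicate 2 (0.0689), and with no filter on low counts (0.0693), over a range of 0.00536 to 0.0854 in 15 alternatives. Bglap, which encodes osteocalcin, was the other gene that fell (-1.38), from 0.318 CPM, and was named after its values were seen. The count of genes that fell in this list was 1 without GFPsg replicate 1 and with a count minimum of 50.

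The ectodomains of AXL and MERTK are cut off by the metalloproteases ADAM10 and ADAM17, and gamma-secretase then cuts the AXL stump in the membrane. Of 13 genes for these enzymes and their partners 5 rose, 5 fell and 3 were not called (median 0.03). Adam10 went from 175 ± 4.57 CPM to 201 ± 4.12 and 200 ± 3.30 CPM (log2 change 0.20; edgeR adjusted p = 7.37e-05) and Adam17 rose by 0.23 (edgeR adjusted p = 5.17e-05). Timp3, an inhibitor of ADAM17, rose by 0.80, more with guide 1 (0.97) than with guide 2 (0.63; edgeR adjusted p = 3.36e-04 for the difference). Psen2, a catalytic subunit of gamma-secretase, fell by 1.60, from 98.1 ± 1.84 CPM to 27.4 ± 1.53 and 38.1 ± 1.05 CPM. Aph1c fell by 2.24, from 183 ± 3.29 to 31.3 ± 0.41 and 47.7 ± 1.96 CPM, and it is similar in sequence to Aph1b, so the split of reads between them is uncertain.

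Phosphatidylserine, to which both ligands bind, is exposed by scramblases and drawn inwards by flippases. The list held these and partner proteins, and of its 13 tested genes 7 rose, 4 fell and 2 were not called (median 0.13). Of the 7 that rose, 3 encode partner proteins and not scramblases or flippases, namely Nptn (0.13), Bsg (0.13) and Xrcc4 (0.25), named after their values were seen. Ano6, a calcium-activated scramblase, rose by 0.31 (edgeR adjusted p = 5.01e-05), and Xkr8, the scramblase that caspases switch on, had a log2 change of 0.16 (adjusted p = 0.156), called with library size alone (0.25, adjusted p = 0.0318). Plscr3 rose by 0.61. Ano3, of the anoctamin family, fell by 1.76, from 68.4 ± 1.57 to 16 ± 0.66 and 25.4 ± 0.78 CPM, and the flippase gene Atp11a fell by 0.70, from 162 ± 11.2 to 90.2 ± 3.22 and 110 ± 8.58 CPM.

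Of 18 tested genes for other phosphatidylserine receptors and bridging proteins, 12 rose, 3 fell and 3 were not called (median 0.79), where 24.7% of all genes tested rose and 26.3% fell. With a count minimum of 50, 8 rose and 3 fell. Among those that rose, Stab1 (0.0565 CPM in GFPsg), Stab2 (0.114), Cd300lb (0.0468) and Tulp1 (0.0512) rest on few reads. They were named after their values were seen. Mfge8, whose product bridges phosphatidylserine to integrins, went from 29.0 ± 1.21 CPM to 87.0 ± 2.41 with guide 1 and 73.9 ± 0.34 with guide 2, and rose by 1.47 on the log2 scale (edgeR adjusted p = 3.93e-15). It too was lower with guide 2 than with guide 1 (log2 difference -0.23; edgeR adjusted p = 0.00266). Itgb5, an integrin subunit that binds MFGE8, rose by 1.40, the engulfment receptor gene Megf10 by 1.12 and Lgals3, which encodes galectin-3, by 0.34 (from 162 ± 1.31 to 206 ± 2.03 and 203 ± 7.59 CPM). Timd4, Havcr1 and Adgrb1, which encode phosphatidylserine receptors, were at 0 in every group. The members that fell were Edil3 (-1.10), a relative of Mfge8, Itgb3 (-0.48) and Calr (-0.49), named after their values were seen.

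Downstream of the receptors, 12 of 31 tested adaptor and effector genes rose, 12 fell and 7 were not called (median 0.05), and with library size alone 7 fell. Pik3cb, a catalytic subunit of PI 3-kinase, rose by 1.48, from 29.1 ± 0.99 to 86.4 ± 4.19 and 76.6 ± 4.78 CPM. The focal adhesion adaptor gene Bcar1 rose by 1.09, and Sirpa, which encodes the receptor for CD47, fell by 1.37, from 198 ± 8.13 to 66.5 ± 1.09 and 88.3 ± 2.53 CPM. The highest edgeR adjusted p among these 3 was that of Bcar1, 1.22e-12. Elmo1, the point farthest to the right in the plot of pathway genes, was picked after its values were seen and rests on few reads, at 0.00999 CPM in GFPsg against 0.272 and 0.143 CPM.

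In dendritic cells TAM signalling works through the type I interferon receptor and induces SOCS proteins, which damp cytokine signals. Of 7 tested genes of that arm 4 rose, 1 fell and 2 were not called (median 0.42). Socs3 rose by 1.64, from 3.56 ± 0.47 to 11.6 ± 0.97 and 10.6 ± 1.05 CPM (edgeR adjusted p = 1.46e-10), and Socs1 by 1.11 from 0.725 ± 0.0700 CPM. The kinase gene Jak1 rose by 0.42, while the receptor subunit gene Ifnar1 fell by 0.38. Twist1, which AXL signalling induces in macrophages, was at 0 in every group.

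Of 15 genes for transcription factors reported to act on the AXL promoter or to accompany its state, 7 rose, 5 fell and 3 were not called (median 0.18), and with library size alone 3 fell. Tead4 rose by 0.89, from 12.1 ± 0.18 to 22.2 ± 0.67 and 22.5 ± 0.79 CPM, while Mitf fell by 1.46 and Sox10 by 1.16. The other TEAD genes rose too, by 0.31 (Tead1), 0.32 (Tead2) and 0.62 (Tead3). Yap1 (-0.13) and Wwtr1 (-0.14), which encode the coactivators that work with TEAD factors, fell, and Fosl1, an AP-1 subunit, rose by 2.05 from 0.255 CPM. These last genes were chosen after their values were seen.

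**Figure D4:**
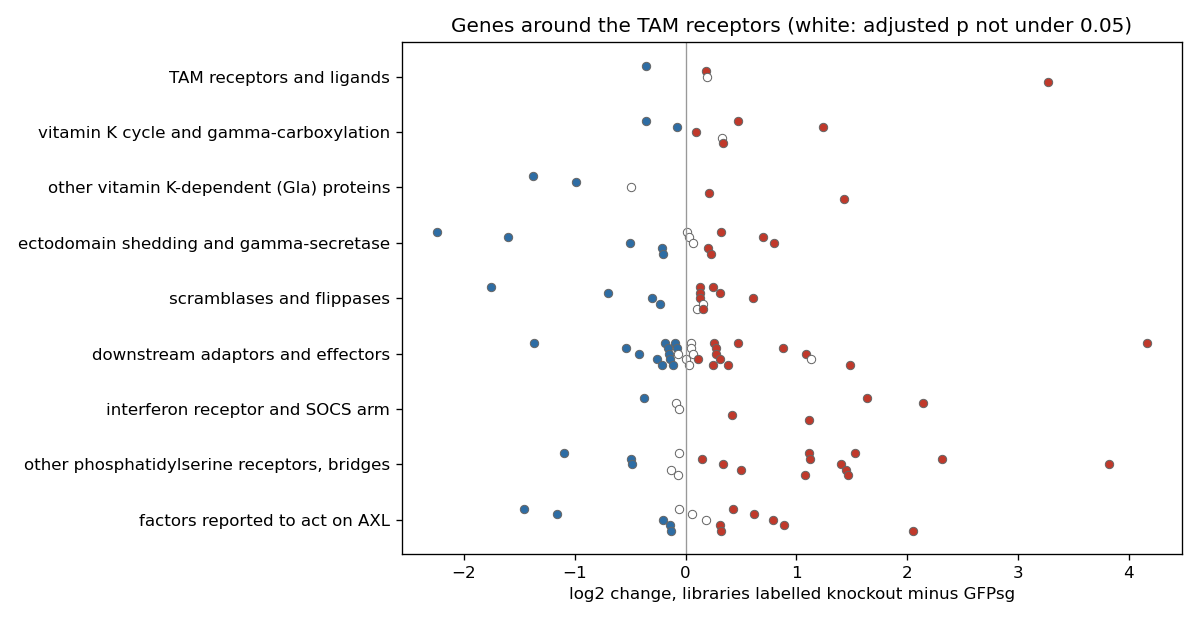
Log2 change of each tested gene of the TAM genes and the 8 pathway lists, libraries labelled knockout minus GFPsg (1 point per gene; red, called higher; blue, called lower; white, not called; the vertical offset within a list has no meaning). Each list has points on both sides of 0, and Axl lies apart from the other TAM genes at 3.27.

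Genes whose level across the 9 libraries was most like that of each TAM gene were ranked by Pearson's r of log2 CPM among 9682 or 9683 other genes with a mean of at least 5 CPM. All 9 libraries share the same 3 groups, so r is high for any gene with a like difference between groups, and it is given as a description. For Axl the first 3 were Cdc42ep1 (r = 0.9999), Thbs1 (0.9998) and Ankrd1 (0.9997), and 1228 genes had r above 0.95. Their log2 changes were 2.38, 4.04 and 7.02. For Tyro3 they were Mettl8 (r = 0.9819), Os9 (0.9786) and Prkcd (0.9777), with 29 genes above 0.95, and for Pros1 they were B4galt3 (r = 0.9935), Golga3 (0.9918) and Ahdc1 (0.9883), with 161 above. No gene reached 0.95 with Mertk, for which Dusp10 (r = 0.9279), Ube2r2 (0.9238) and Ifi30 (0.9233) came first.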

How the data were processed

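The authors deposited raw read counts per gene, 1 column per library. Per the submitters' processing notes, bcl2fastq, HISAT2 and HTSeq were used with mm10; versions, annotation, strand setting and filters are not given in the sources used here. Symbols and coordinates came from GENCODE M21 (mm10), which matched 54723 of 54752 identifiers. Counts were tested with edgeR 4.0.16 (R 4.3.3): filterByExpr with groups and minimum count 10 (17931 genes kept), TMM scaling, and the quasi-likelihood test in 1 fit of all 9 libraries, with Benjamini-Hochberg adjustment over all genes tested and calls at an adjusted p under 0.05. The knockout comparison sets the mean of both guides against GFPsg. Alternatives included DESeq2 1.42.0. No replicate pair was identical (chi-square per degree of freedom 7.75 to 25.2).

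The members and lists were chosen with earlier results of these data known. Named genes were all members, up to 3 genes per list with the lowest p and a mean of at least 1 CPM, genes with a direct role on the TAM proteins, and the 3 genes most like each member, leaving out predicted and clone names. The values of 2 genes that this rule names are not reported here.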

Additional observations from a re-analysis of the deposited data

Results flagged for a closer look

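The change of Axl differed between the guides. The difference itself was tested: the log2 change with guide 2 minus that with guide 1 was -0.22 (edgeR adjusted p = 0.0163), and all 3 guide 2 libraries (110 to 121 CPM) lay below all 3 guide 1 libraries (130 to 135 CPM). The call ended in 3 of the 9 fits that left out 1 library, named above. A smaller change with guide 2 was also seen for the melanoma lineage markers, as given above. The groups of 3 libraries are too small for a test of single outlying libraries.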

How the results depend on the processing

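Over 15 alternatives to the knockout comparison and 16 to each of the others, no result that passed the threshold changed its sign, and 11 of 16 results on single TAM genes and 46 of 52 on other named genes kept their direction and side of the threshold in every alternative. Differences that were not called changed sign for Tyro3 between the guides (0.03; -0.05 to 0.09 when 1 library was left out) and for Pdgfra (-0.04; 0.04 with library size alone and -0.20 to 0.14 when 1 library was left out). The other exceptions among the TAM genes are given above, and those among the other genes were Vkorc1, Prrg2, Xkr8, Os9 and Ube2r2. For both guides together the log2 change ran from 3.22 to 3.35 for Axl, from -0.39 to -0.27 for Tyro3 and from 0.16 to 0.26 for Pros1. The number of TAM genes called between the guides was 1, and 0 to 1 when 1 library was left out. The number of all genes called between the guides (660) was 1070 with no filter on low counts and 335 to 808 when 1 library was left out. With library size alone the mean of Mertk in GFPsg was 2.73 in place of 2.84 CPM.

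Replicate numbers recur in each group, and the labels do not say whether they pair the libraries. Libraries of the same number correlated in their deviations from the group mean by -0.01 to 0.10, and those of different numbers by -0.09 to 0.04. All 9 libraries correlated best with a library of their own number. The main fit had no replicate block, and a batch shared by number was not tested. With the replicate block 1705 genes were called between the guides, and Mertk with guide 2 was called (log2 change 0.27, edgeR adjusted p = 0.0479); no other TAM gene changed its call. Low counts limit Gas6 most, and next Mertk, with 195 to 269 reads per library.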

Other observations

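The spread between libraries can be set beside the counting error that the reads alone would give. For Mertk the coefficient of variation was 2.57% in GFPsg, 7.03% with guide 1 and 6.41% with guide 2, against counting errors of 7.06%, 6.49% and 6.24%. For Axl it was 7.69%, 2.19% and 5.46%, against 3.33%, 0.988% and 1.08%, so that its spread was above the counting error in each group. In GFPsg, replicate 2 was the lowest library for Axl, Tyro3 and Pros1 and the highest for Mertk.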
